A study of Mus musculus with 24 samples.

Results

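The genes described are 39 components of the BMP and TGF beta signalling pathways, chosen by name: 6 BMP ligands, 3 TGF beta ligands, 2 activin subunits, 2 growth differentiation factors, 4 secreted antagonists, 7 BMP or activin receptors, 3 TGF beta receptors, 5 receptor-regulated Smads, the common Smad, 2 inhibitory Smads and the 4 Id genes. All 39 were found among the 46603 annotated genes that were counted in every library, next to 79999 loci assembled by the authors. The libraries are total RNA of 24 individual mouse retina organoids (MROs), 6 at each of days 20, 22, 25 and 30 of differentiation (D20, D22, D25 and D30). They were grown from wildtype E14Tg2a mouse embryonic stem cells, a single established line, and all are controls that received only water, the solvent. The library titles carry the mark Ctrl at D22, D25 and D30 but not at D20. In the study's protocol every organoid was trisected and passed through a pulse of the retinoid receptor agonist EC23 before the first timepoint, so all 4 groups share these steps and differ in age. All organoids came from 1 independent experiment, and pieces of the same aggregate can be among them, so the errors below measure the spread between organoids and not between differentiations.

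BMP, TGF beta, activin and growth differentiation factor ligands bind pairs of type I and type II receptor kinases on the cell surface. The receptors phosphorylate receptor-regulated Smads, which join the common Smad4 and enter the nucleus, where BMP signals switch on the Id genes and the inhibitory Smads that damp the pathway. In the retina, BMPs act early in patterning the eye, Gdf11 limits the production of early-born neurons, and TGF beta and BMP signals have been tied to the proliferation of progenitors and of Müller glia.

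Between 13634846 and 19477108 reads per organoid fell on a counted feature, and levels are given as normalized CPM, the reads per gene scaled to a common library size by TMM. Of the 39 genes, 37 passed the filter on low counts (a base mean of at least 10). Bmp5 and Tgfb1 did not pass it. Bmp5 was at a median of 0.684 CPM at D30 and at medians of 0 to 0.136 CPM before, and Tgfb1 did not exceed 0.418 CPM in any organoid. A gene was called changed at an adjusted p below 0.01, by the quasi-likelihood test of edgeR, adjusted by Benjamini-Hochberg across every feature that was tested.

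The labelled tissue was checked against cell type markers. The 5 rod genes summed to 297 to 653 CPM per organoid at D20 and to 1634 to 3008 CPM at D30, and all 5 were called higher. All 6 progenitor genes and all 5 ganglion cell genes were called lower, all 5 bipolar genes were called higher, and 5 of 6 Müller glia genes were called higher. In the astrocyte list all 3 tested genes of 4 were called higher, with Gfap carrying the sum and Pax2 at a median of 0.152 CPM at D30. The study reads Gfap as a hallmark of reactive Müller glia and states that such organoid systems lack astrocytes. Also called higher were 4 of 5 tested mesenchyme genes of 6 (7.98 to 27.8 CPM summed at D20, 62.9 to 261 at D30) and 2 of 3 tested choroid plexus genes of 4. Of the pigment epithelium genes 2 of 5 tested were called higher, with Rpe65 and Best1 near 0 and Ttr carrying the sum. In the ciliary margin list 2 of 4 tested genes were called higher and 1 lower, in the amacrine list 1 of 4 higher, and in the cortex list 0 of 5. The endothelium list had 1 gene higher and 1 lower of 2 tested, 1 tested pluripotency gene of 4 was lower, and none of the microglia or lens genes passed the filter. The levels of these lists differ between the timepoints, in both directions, and their part in the results below was not tested. In bulk RNA, fewer cells of a type and less RNA per cell cannot be told apart.

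Over the whole interval, D30 against D20, 19 of the 37 tested genes were called changed, or 51.4%, against 41.8% of the 16253 tested annotated genes. Of these, 11 were higher, with 25.1% of all annotated genes called higher, and 8 were lower, with 16.7% of all annotated genes called lower. The higher genes were the ligands Bmp3, Bmp6, Tgfb2 and Gdf10, the receptors Bmpr1a, Bmpr2, Acvr1b, Tgfbr2 and Tgfbr3, the target gene Id4 and the antagonist Nog. The lower genes were the ligand Gdf11, the receptors Tgfbr1 and Acvr2b, and the intracellular mediators Smad1, Smad2, Smad4, Smad6 and Smad7. In 12 of the 37 genes the D20 and D30 organoids did not overlap, against 29.7% of annotated genes, with 5 higher and 7 lower at D30. The median log2 fold change was 0.45 over the 37 genes and 0.10 over the tested annotated genes. A joint test of the 4 timepoints called 23 of the 37 genes, or 62.2%, against 43.9% of annotated genes, and added Smad3, Id2, Id3 and Inhbb to the 19.

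**Figure D1:**
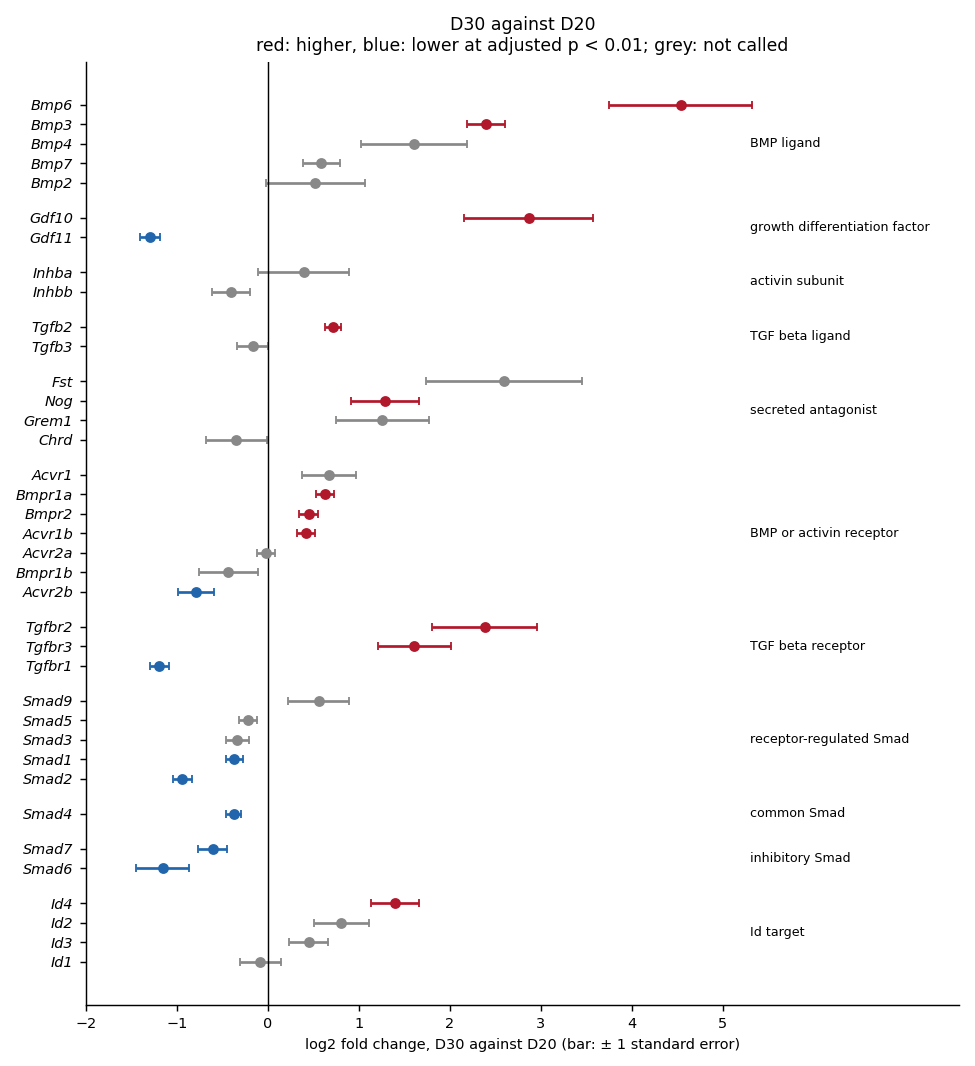
Log2 fold change of D30 against D20 for the 37 tested genes, grouped by their role, with points for the edgeR estimate and bars for 1 standard error (6 organoids per timepoint). The 8 genes in blue, called lower, include Gdf11, Tgfbr1 and 5 Smads, and the 11 genes in red, called higher, include 4 ligands and 5 receptors.

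Among the BMP ligands, Bmp3, an atypical member that opposes other BMPs in bone, rose over the time course. In the D20 organoids Bmp3 (ENSMUSG00000029335, chr5:98854415-98884396 in GRCm38) ran from 2.89 to 5.94 CPM with a median of 5.32. At D22 it ran from 5.72 to 11.7 CPM with a median of 8.26, at D25 from 12.7 to 19.4 with a median of 15.8, and at D30 from 18.1 to 37.5 with a median of 24.02. The D25 organoids were all above the D22 organoids, and every D30 organoid lay above every D20 organoid, while neighbouring timepoints otherwise overlapped. From D20 to D30 the rise was 5.28-fold (log2 2.40 ± 0.21 SE, edgeR adjusted p = 9.8e-11, n = 6 organoids a timepoint). The step from D22 to D25 was called as well (log2 0.87, adjusted p = 0.0035). The call of this step was lost without D22 replicate 1, 4 or 6 or D25 replicate 1 or 4 (adjusted p up to 0.0125). Its log2 value stayed between 0.77 and 0.96 in all 24 omissions of an organoid.

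Bmp6 was near the limit of detection at D20, with 0 to 3 reads per organoid, and had 8 to 65 reads at D30. Its medians were 0.0688, 0.0697, 0.423 and 2.33 CPM over the 4 timepoints in turn, and all D30 organoids lay above all D20 organoids. The ratio of its summed reads, scaled by library size, was 25.4 (95% exact interval 12.7 to 59.5, counting error only), and edgeR called it higher with an adjusted p of 2.7e-05. Bmp6 shares 224 exon bases with Txndc5 on the opposite strand, and the use of strand in counting is not given in the sources used here. Txndc5 was called lower over the same interval, with a log2 change of -0.47 (adjusted p = 0.0068).

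The other BMP ligands were not called. Bmp7, a ligand needed for eye formation in mice, had medians of 4.56 to 7.21 CPM (log2 0.59 from D20 to D30, edgeR adjusted p = 0.022). DESeq2 did call Bmp7 higher over this interval (log2 0.65, DESeq2 adjusted p = 0.0056). Bmp4, which patterns the dorsal optic cup, had medians of 0.698 to 2.105 CPM (log2 1.61, adjusted p = 0.029), and Bmp2 had medians of 0.545 to 1.51 CPM. With 1 organoid left out, the edgeR adjusted p of Bmp4 from D20 to D30 ran from 0.0072, past the threshold, to 0.15. For Bmp4 and Bmp2 a single organoid had between 0 and 121 reads, which sets the precision of these values.

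Gdf11, a ligand that limits the production of early-born retinal neurons, was the member with the highest level per kilobase of exon at D20. It fell by more than any other member called lower, by the fold change. Gdf11 (ENSMUSG00000025352, chr10:128882295-128891718) ran from 126 to 155 CPM at D20 with a median of 149.8, and from 109.7 to 140.0 at D22 with a median of 126. At D25 it ran from 65.7 to 98.0 CPM with a median of 75.9, and at D30 from 44.8 to 73.6 with a median of 61.7. The D20 and D22 organoids overlapped, all D25 organoids lay below all D22 organoids, and the D25 and D30 organoids overlapped again. Its fall from D22 to D25 was 1.59-fold (log2 -0.67 ± 0.11 SE, adjusted p = 0.00015) and its fall over the whole interval was 2.45-fold (log2 -1.29 ± 0.11 SE, adjusted p = 1.0e-10). Both calls held without any single organoid, with adjusted p-values of at most 0.00079 for the step. Gdf10, a ligand of the BMP3 subgroup, went the other way, from a median of 0.680 CPM at D20 to 4.80 at D30 (log2 2.87, adjusted p = 0.0017), and its D30 organoids did not overlap those of D20.

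Inhbb, which encodes the beta subunit of activin B, peaked in the middle of the time course. At D20 Inhbb (ENSMUSG00000037035, chr1:119415465-119422248) ran from 8.53 to 19.1 CPM with a median of 14.5, at D22 from 15.4 to 39.4 with a median of 21.2, at D25 from 18.3 to 34.1 with a median of 24.1, and at D30 from 8.33 to 14.6 with a median of 10.3. All 6 D25 organoids lay above all 6 D30 organoids, and the D20 and D30 organoids overlapped. The fall from D25 to D30 was 2.23-fold (log2 -1.16 ± 0.21 SE, adjusted p = 0.00040), and it held without any single organoid. The rise from D20 to D22 was not called (log2 0.70, adjusted p = 0.044), nor was D30 against D20 (log2 -0.41, adjusted p = 0.12). Inhba, the subunit of activin A, had medians of 1.02 to 1.79 CPM and was not called.

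Tgfb2 was the TGF beta ligand with the highest level per kilobase of exon, at a mean of 8.94 CPM per kb at D20 and 14.7 at D30, against 3.79 and 3.38 for Tgfb3. Tgfb2 (ENSMUSG00000039239, chr1:186622792-186705989) ran from 46.7 to 59.2 CPM at D20 with a median of 50.7, and from 42.1 to 55.2 at D22 with a median of 48.8. At D25 it ran from 53.0 to 70.5 CPM with a median of 60.8, and at D30 from 80.5 to 93.0 with a median of 83.7. All D30 organoids lay above every organoid of the other timepoints. The step from D25 to D30 was 1.41-fold (log2 0.49 ± 0.09 SE, adjusted p = 0.00054) and the whole rise 1.64-fold (log2 0.71 ± 0.09 SE, adjusted p = 2.1e-07). Tgfb3 had medians of 10.2 to 12.6 CPM and was not called (log2 -0.17 from D20 to D30, adjusted p = 0.49).

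The 3 TGF beta receptors did not move together. Tgfbr1 (ENSMUSG00000007613, chr4:47353222-47414931), the type I kinase that phosphorylates Smad2 and Smad3, ran from 113 to 136 CPM at D20 with a median of 124, and from 108 to 141 at D22 with a median of 112. At D25 it ran from 77.1 to 97.8 CPM with a median of 87.7, and at D30 from 42.5 to 65.1 with a median of 55.3. The D20 and D22 organoids overlapped, and after that each timepoint lay wholly below the one before it. Tgfbr1 fell 1.32-fold from D22 to D25 (log2 -0.40, adjusted p = 0.0097), 1.60-fold from D25 to D30 (log2 -0.68 ± 0.10 SE, adjusted p = 5.9e-05) and 2.28-fold from D20 to D30 (log2 -1.19 ± 0.10 SE, adjusted p = 1.8e-10). The first of these steps sat at the threshold and was lost without any one of 14 organoids (D20 replicates 2 to 6, D22 replicates 1, 4, 5 and 6, and D25 replicates 2 to 6), with an adjusted p of up to 0.036, while the other 2 calls held in all 24 omissions.

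Tgfbr2, the type II kinase that binds the ligand, was at medians of 0.551, 0.437, 1.01 and 3.54 CPM over the 4 timepoints in turn. It rose from D20 to D30 by 2.38 on the log2 scale (adjusted p = 0.0013). D30 replicates 3 and 4, at 0.985 and 0.619 CPM, lay within the D20 range of 0.210 to 1.25. Tgfbr3, a co-receptor also called betaglycan that presents Tgfb2 to the kinases, was at medians of 1.43, 1.34, 1.32 and 4.21 CPM, with D30 organoids from 1.62 to 10.1 CPM. It rose from D25 to D30 (log2 1.69, adjusted p = 0.0071) and from D20 to D30 (log2 1.61, adjusted p = 0.0019). Without D30 replicate 6, the highest organoid, these became 1.27 with an adjusted p of 0.038 and 1.20 with an adjusted p of 0.016. The D25 to D30 step was also lost without D25 replicate 1, 2, 3, 5 or 6 or D30 replicate 1, 2 or 5.

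The ligand and its type I receptor were also set side by side in each organoid. Per kilobase of exon, the level of Tgfb2 relative to that of Tgfbr1 had medians of 0.473, 0.484, 0.799 and 1.79 over the 4 timepoints in turn. The 6 ratios at D30, from 1.43 to 2.17, lay above all ratios of the other timepoints, which did not exceed 0.899. This ratio puts the levels already given on 1 scale and was given no test.

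**Figure D2:**
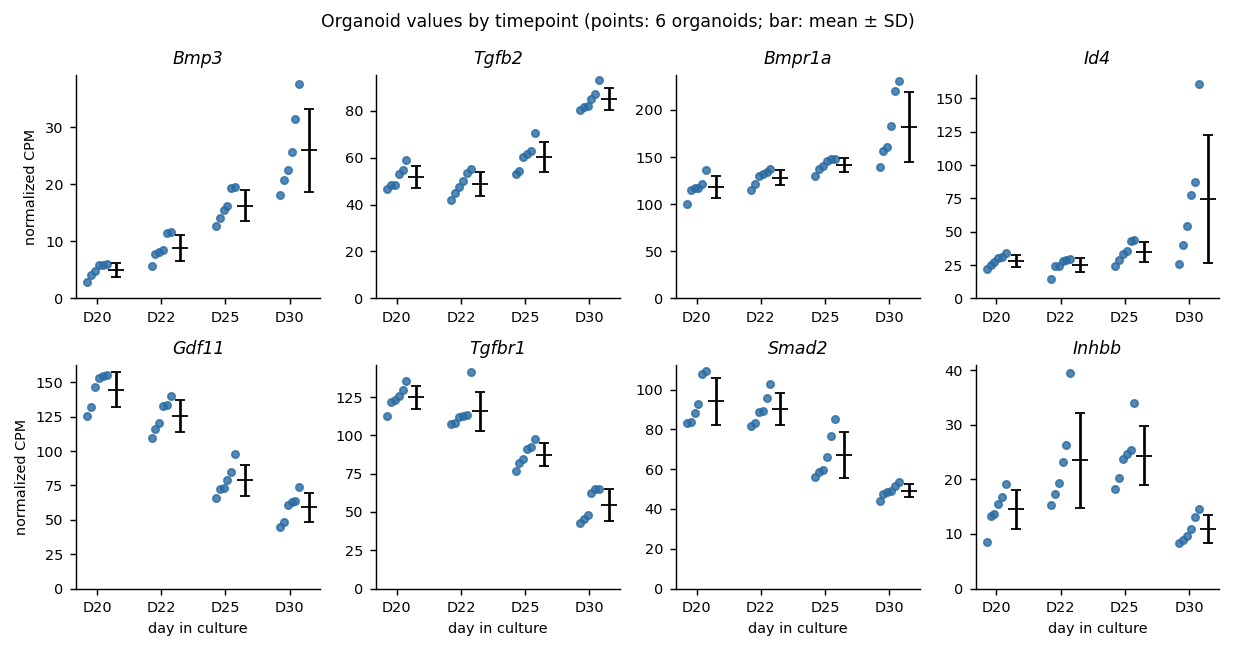
Normalized CPM of 8 genes in each of the 24 organoids by timepoint, with points sorted from low to high within a timepoint and bars for the mean ± SD of 6 organoids. Bmp3 and Tgfb2 are highest at D30, Gdf11, Tgfbr1 and Smad2 are lowest there, Inhbb is highest at D22 and D25, and the Id4 organoids at D30 spread from 26.1 to 161 CPM.

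Among the BMP and activin receptors, Bmpr1a, the type I BMP receptor needed for eye development, rose. Its organoids ran from 100.0 to 136 CPM at D20 with a median of 117, from 115 to 137 at D22 with a median of 131, from 129.8 to 148 at D25 with a median of 143, and from 139 to 231 at D30 with a median of 171. All D30 organoids lay above all D20 organoids, and consecutive timepoints overlapped. The rise was 1.54-fold (log2 0.63 ± 0.10 SE, adjusted p = 9.5e-06).

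Bmpr2, the type II BMP receptor, ran from 152 to 174 CPM at D20 with a median of 167, from 162 to 189.8 at D22 with a median of 171, from 169 to 247 at D25 with a median of 200.3, and from 163 to 285 at D30 with a median of 215. It rose 1.36-fold (log2 0.45 ± 0.10 SE, adjusted p = 0.00088), with overlapping D20 and D30 organoids. Acvr1b, a type I activin receptor, ran from 38.5 to 45.1 CPM at D20 with a median of 41.2, from 41.0 to 48.2 at D22 with a median of 43.7, from 49.4 to 69.0 at D25 with a median of 53.2, and from 42.0 to 64.7 at D30 with a median of 55.8. Its D20 and D30 organoids overlapped too, and its rise was 1.33-fold (log2 0.42 ± 0.10 SE, adjusted p = 0.0012).

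Acvr2b, a type II activin receptor that also binds Gdf11, went down. It ran from 8.67 to 13.3 CPM at D20 with a median of 10.8, from 6.75 to 11.6 at D22 with a median of 9.70, from 4.76 to 12.1 at D25 with a median of 7.20, and from 4.70 to 8.37 at D30 with a median of 6.34. No D30 organoid reached the lowest D20 organoid, and the fall was 1.73-fold (log2 -0.79 ± 0.20 SE, adjusted p = 0.0023). The related Acvr2a was at medians of 71.5 to 75.9 CPM at all 4 timepoints, with a log2 change of -0.02 ± 0.10 SE from D20 to D30 (adjusted p = 0.92).

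Bmpr1b and Acvr1 were not called. Bmpr1b, the other type I BMP receptor of the retina, had medians of 29.2, 18.5, 11.4 and 20.6 CPM (joint adjusted p = 0.015), and its D30 organoids ran from 3.82 to 38.8 CPM. Acvr1 had medians of 4.55 to 7.75 CPM. Per kilobase of exon, the level of Bmpr1a relative to Bmpr1b had medians of 3.98, 6.93, 11.5 and 7.26 over the 4 timepoints in turn. The D30 organoids (5.58 to 34.2) did not overlap those of D20 (2.57 to 4.97).

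Of the receptor-regulated Smads, Smad2 fell most. Smad2, which carries TGF beta and activin signals, ran from 83.4 to 109 CPM at D20 with a median of 90.4, from 81.6 to 103 at D22 with a median of 88.8, from 56.0 to 85.3 at D25 with a median of 62.9, and from 44.2 to 53.5 at D30 with a median of 48.7. Every D30 organoid lay below every organoid of the other timepoints. The fall from D20 to D30 was 1.92-fold (log2 -0.94 ± 0.10 SE, adjusted p = 1.7e-08) and held in all 24 omissions of an organoid. The steps from D22 to D25 (log2 -0.43, adjusted p = 0.0061) and from D25 to D30 (log2 -0.45, adjusted p = 0.0054) were called. The first was lost without D22 replicate 1, 2, 5 or 6 or D25 replicate 1, 2, 4 or 6 (adjusted p up to 0.023), and the second without D22 replicate 1 or 4, D25 replicate 3, 5 or 6 or D30 replicate 2, 3, 4 or 6 (adjusted p up to 0.027).

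Smad3, the other TGF beta Smad, had medians of 24.7, 20.0, 16.0 and 18.8 CPM and was called in the joint test (adjusted p = 0.0061) but not for D30 against D20 (log2 -0.33, adjusted p = 0.036). The joint call was lost without D20 replicate 1, 2, 3 or 5 or D25 replicate 1, 3, 5 or 6, with an adjusted p of up to 0.019. Smad1, which carries BMP signals, ran from 46.8 to 55.1 CPM at D20 with a median of 51.8, from 45.4 to 57.4 at D22 with a median of 50.7, from 42.9 to 53.3 at D25 with a median of 45.1, and from 36.1 to 46.5 at D30 with a median of 38.5. Its D30 organoids lay below all D20 organoids, with a fall of 1.29-fold (log2 -0.37 ± 0.09 SE, adjusted p = 0.0018). Smad5, with medians of 103 to 121 CPM (log2 -0.22, adjusted p = 0.084), and Smad9, with medians of 1.42 to 2.83 CPM, were not called.

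Smad4, the partner of all receptor-regulated Smads, ran from 84.6 to 109.7 CPM at D20 with a median of 102, from 93.8 to 109.5 at D22 with a median of 98.7, from 84.9 to 97.6 at D25 with a median of 90.9, and from 65.9 to 91.6 at D30 with a median of 76.3. The D20 and D30 organoids overlapped, and the fall was 1.29-fold (log2 -0.37 ± 0.08 SE, adjusted p = 0.00065).

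Both inhibitory Smads, which are themselves induced by the pathway, went down. Smad6, which acts mainly on BMP receptors, ran from 4.05 to 6.92 CPM at D20 with a median of 5.07, from 5.02 to 8.21 at D22 with a median of 6.47, from 1.1 to 5.51 at D25 with a median of 3.17, and from 1.04 to 3.48 at D30 with a median of 2.64. Smad7, which acts on both branches, ran from 11.3 to 14.3 CPM at D20 with a median of 13.3, from 11.2 to 15.5 at D22 with a median of 13.4, from 7.30 to 14.7 at D25 with a median of 10.2, and from 6.54 to 10.3 at D30 with a median of 8.65. For both genes the D30 organoids lay below all D20 and all D22 organoids. Smad6 fell 2.23-fold from D20 to D30 (log2 -1.16 ± 0.29 SE, adjusted p = 0.0020) and Smad7 1.52-fold (log2 -0.61 ± 0.16 SE, adjusted p = 0.0035). Without D30 replicate 6 the value of Smad7 was -0.54 with an adjusted p of 0.011.

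**Figure D3:**
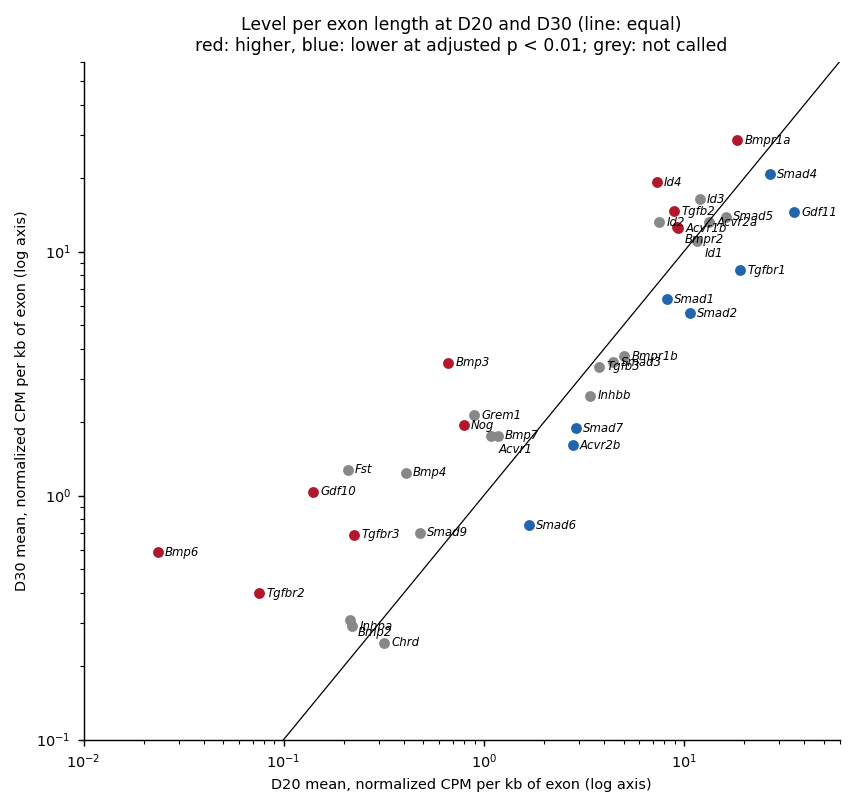
Mean level per kilobase of exon at D30 against that at D20, both on log axes, for the 37 tested genes (each mean over 6 organoids, with the line marking equal levels). Gdf11 leads at D20 with 35.6 CPM per kb and Bmpr1a leads at D30 with 28.6 CPM per kb, while Tgfbr1 and Smad2 sit below the line and Bmp3, Tgfb2 and Id4 above it.

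On the scale of CPM per kilobase of exon, which allows levels of different genes to be set side by side, the order changed with age. At D20 the highest members were Gdf11 at 35.6 ± 3.1 (SD, n = 6), Smad4 at 26.9 ± 2.4, Tgfbr1 at 19.1 ± 1.2 and Bmpr1a at 18.5 ± 1.8. Tgfbr1 and Bmpr1a differed there by less than their SD. At D30 the highest were Bmpr1a at 28.6 ± 5.8, Smad4 at 20.8 ± 2.2, Id4 at 19.3 ± 12.5, Id3 at 16.4 ± 6.5, Tgfb2 at 14.7 ± 0.8 and Gdf11 at 14.5 ± 2.6. The neighbours from Smad4 to Gdf11 in this order differed by less than the spread of the organoids. Tgfbr1 went from rank 3 to rank 13 and Id4 from rank 15 to rank 3.

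The Id genes, whose proteins block neurogenic basic helix-loop-helix factors, are shown with their promoters because they are textbook targets of BMP signals. The activity of the pathway itself was not measured here. Windows of 280 bases from 250 before to 30 after the RefSeq transcript start (GRCm38.p6, 5′ to 3′) are given for Id2, Id3 and Id4, and for Smad6 as an inhibitory Smad that was called lower. Capitals mark 2 strings of letters known as Smad elements, GGCGCC and GTCTAGAC, each of which reads the same on both strands, and the strings do not overlap in any of these windows. Id1 is named only.
Id2 (chr12:25096063-25096342, minus strand): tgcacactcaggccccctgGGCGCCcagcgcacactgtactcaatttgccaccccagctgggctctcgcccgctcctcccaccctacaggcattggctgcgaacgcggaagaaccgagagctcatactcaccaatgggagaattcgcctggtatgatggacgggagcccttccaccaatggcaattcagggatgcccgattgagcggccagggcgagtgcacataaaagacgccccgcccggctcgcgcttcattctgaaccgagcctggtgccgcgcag
Id3 (chr4:136143572-136143851, plus strand): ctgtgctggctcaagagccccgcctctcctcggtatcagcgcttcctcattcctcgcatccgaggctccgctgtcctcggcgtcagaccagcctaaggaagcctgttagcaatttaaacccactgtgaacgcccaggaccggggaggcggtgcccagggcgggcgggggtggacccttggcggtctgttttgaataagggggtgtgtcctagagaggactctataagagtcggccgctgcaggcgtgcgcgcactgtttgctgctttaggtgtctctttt
Id4 (chr13:48260866-48261145, plus strand): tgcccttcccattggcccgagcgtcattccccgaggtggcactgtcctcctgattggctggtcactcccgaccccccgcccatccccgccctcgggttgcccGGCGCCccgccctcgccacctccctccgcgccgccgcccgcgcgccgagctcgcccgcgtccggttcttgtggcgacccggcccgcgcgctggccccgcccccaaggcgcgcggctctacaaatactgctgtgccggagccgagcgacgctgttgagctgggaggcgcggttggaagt
Smad6 (chr9:64022030-64022309, minus strand): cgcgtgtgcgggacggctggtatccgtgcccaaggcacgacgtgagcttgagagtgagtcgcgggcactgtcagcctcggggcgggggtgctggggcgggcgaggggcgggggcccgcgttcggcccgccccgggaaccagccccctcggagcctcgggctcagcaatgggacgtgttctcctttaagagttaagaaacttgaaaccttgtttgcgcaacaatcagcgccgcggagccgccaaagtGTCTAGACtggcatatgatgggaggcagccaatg
GGCGCC lay 231 bases before the start in Id2 and 148 before it in Id4, and GTCTAGAC began 4 bases before the start in Smad6. Neither string was in the Id3 window. GGCGCC was in 10.9% of all 32851 RefSeq windows of this length and in 19.4% of the 13374 windows of tested coding genes. It was in 12 of the 33 windows of members, which belong to 11 of the 28 members that had a window. GTCTAGAC was in 0.192% of all windows and in 0.239% of those of tested coding genes, and Smad6 was the only member with it. A match is a description of letters and says nothing about binding here.

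Id4 rose late and unevenly. In the D20 organoids Id4 (ENSMUSG00000021379) ran from 22.0 to 34.1 CPM with a median of 28.6, at D22 from 14.9 to 29.3 with a median of 26.3, at D25 from 24.3 to 43.8 with a median of 34.5, and at D30 from 26.1 to 161 with a median of 65.7. Of the D30 organoids only replicate 6 lay within the D20 range. The rise from D20 to D30 was 2.64-fold (log2 1.40 ± 0.26 SE, adjusted p = 8.1e-05) and held in all 24 omissions. The step from D25 to D30 (log2 1.09, adjusted p = 0.0072) became 0.71 with an adjusted p of 0.046 without D30 replicate 1, and was also lost without D30 replicate 2 or 5 or D25 replicate 1, 3, 5 or 6.

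The other Id genes did not pass the test for D30 against D20. Id2 had medians of 16.0, 13.0, 16.2 and 25.1 CPM and D30 organoids from 10.1 to 64.5 CPM (log2 0.81, adjusted p = 0.036). With 1 organoid left out, the edgeR adjusted p of Id2 ran from 0.0046, past the threshold, to 0.20. Id3 had medians of 21.2, 15.7, 17.0 and 30.2 CPM and D30 organoids from 15.6 to 44.7 CPM (log2 0.45, adjusted p = 0.10). Both were called in the joint test, with adjusted p-values of 0.0038 and 0.0055. The joint call of Id2 was lost without D30 replicate 1 or 2 (adjusted p up to 0.039) and that of Id3 without D30 replicate 1, 2, 4 or 5 (up to 0.031). Id1, the classical BMP target, had medians of 12.4, 11.5, 7.91 and 14.0 CPM, a log2 change of -0.08 ± 0.23 SE from D20 to D30 (adjusted p = 0.81) and a joint adjusted p of 0.054.

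The 4 Id genes differed between the D30 organoids in a shared order at its ends. D30 replicate 1 was the highest of the 6 in all 4 genes, with 16.9 CPM of Id1, 64.5 of Id2, 44.7 of Id3 and 161 of Id4. D30 replicate 6 was the lowest in all 4, with 6.43, 10.1, 15.6 and 26.1 CPM. The Müller glia genes, of which 5 of 6 were called higher over the interval, summed to 4013 CPM in replicate 1 and to 1068 CPM in replicate 6, again the highest and the lowest, and to between 1810 and 2908 CPM in the other 4. The Müller sum was between 416 and 577 CPM at D20. The ciliary margin genes, at 417 and 74.3 CPM, and the lens genes, at 9.65 and 0.222 CPM, were also highest in replicate 1 and lowest in replicate 6. Replicate 1 was the highest for the summed progenitor genes (241 CPM) too. It was the lowest for the rod (1634 CPM), bipolar (204 CPM) and endothelium (125 CPM) genes. Replicate 6 was the lowest for the summed astrocyte (117 CPM), mesenchyme (62.9 CPM), cortex (7.37 CPM) and microglia (0.166 CPM) genes as well. It was the highest for the ganglion (11.1 CPM) and endothelium (206 CPM) genes. For the pigment epithelium (2501 CPM) and choroid plexus (53.9 CPM) genes only replicate 2 was higher. No lens or microglia gene passed the filter on low counts, so the low ranks in those lists rest on few reads. Single genes carried several of the sums, by their D30 medians. These were Kdr for endothelium (175 CPM, sum 176), Gja1 for ciliary margin (149, sum 161) and Gfap for astrocyte (644, sum 664). Neurod6, which the study names as a gene of postmitotic amacrines, carried most of the cortex sum (118, sum 159). Such sums are not a measure of the named cell type. The TMM factor of replicate 6 was 1.06, with 0.906 to 0.978 in the other 5. The part of these cell types and of the scaling in the Id values was not tested.

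**Figure D4:**
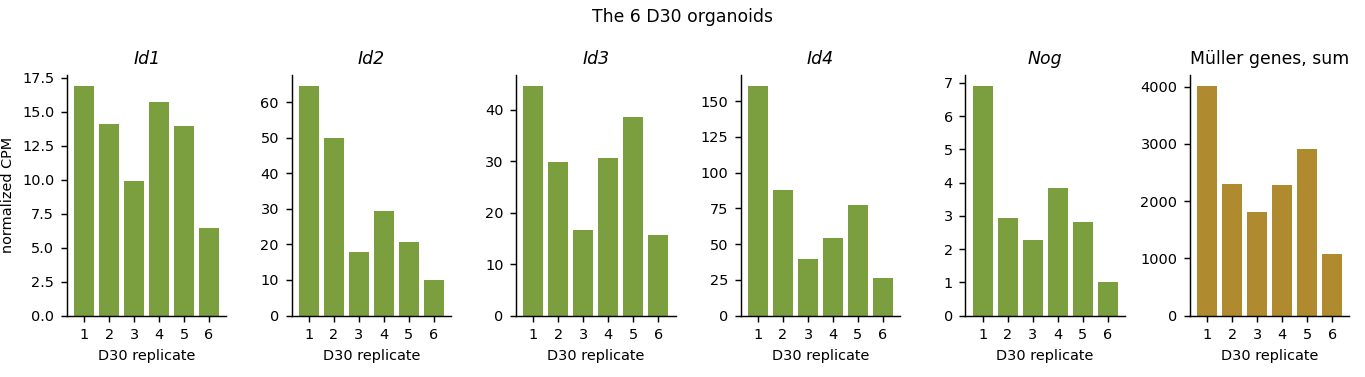
Normalized CPM of the Id genes and Nog, and the summed CPM of 6 Müller glia genes, in each of the 6 D30 organoids (bars start at 0, 1 bar per organoid). Replicate 1 is highest and replicate 6 lowest in every panel, with Müller sums of 4013 and 1068 CPM.

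Nog, the secreted antagonist Noggin that binds BMPs, was the one antagonist called. It had medians of 1.23, 1.28, 1.80 and 2.87 CPM and D30 organoids from 0.998 to 6.91 CPM, the highest being replicate 1 and the lowest replicate 6. The rise from D20 to D30 (log2 1.29 ± 0.37 SE, adjusted p = 0.0070) became 0.93 with an adjusted p of 0.050 without D30 replicate 1, and was lost also without D20 replicate 1, 2, 3, 5 or 6 or D30 replicate 4. Fst, the activin-binding protein follistatin, had medians of 0.789 to 1.93 CPM and a single D30 organoid, replicate 6, at 25.4 CPM (log2 2.60, adjusted p = 0.017). Without that organoid the log2 value of Fst was 1.03 (adjusted p = 0.33). Grem1, a BMP antagonist, had medians of 2.79, 2.62, 4.92 and 8.56 CPM (log2 1.26 from D20 to D30, adjusted p = 0.053, and 1.79 from D22 to D25, adjusted p = 0.024). The latter value was 0.98 (adjusted p = 0.19) without D25 replicate 2, the organoid at 29.7 CPM, and 2.02 and past the threshold without D25 replicate 1. From D20 to D30 the edgeR adjusted p of Grem1 ran from 0.0076, past the threshold, to 0.14 with 1 organoid left out. Chrd, which encodes the BMP antagonist chordin, had medians of 1.58 to 2.12 CPM and was not called.

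In each consecutive step, fewer of the 37 genes were called than over the whole interval. From D20 to D22 edgeR called 0 of them, against 3.32% of annotated genes, with 5 at an unadjusted p below 0.05, and DESeq2 called 1, Bmp3. From D22 to D25, 4 were called, or 10.8%, against 10.2% of annotated genes: Bmp3 higher and Gdf11, Tgfbr1 and Smad2 lower. From D25 to D30, 6 were called, or 16.2%, against 7.38% of annotated genes: Tgfb2, Tgfbr3 and Id4 higher and Tgfbr1, Smad2 and Inhbb lower. The count from D22 to D25 fell to 1 without D22 replicate 1 or D25 replicate 4 and to 2 without D22 replicate 4, 5 or 6 or D25 replicate 6, and that from D25 to D30 fell to 3 without D25 replicate 3, 5 or 6 or D30 replicate 2. The step calls that held in all omissions were Gdf11 from D22 to D25 and Tgfb2, Tgfbr1 and Inhbb from D25 to D30. Of the 19 genes called over the whole interval, 12 were called in none of the 3 steps. Of the tested annotated genes, 6790 were called over the whole interval, and 540, 1665 and 1199 in the 3 steps in turn. Many annotated genes were thus also called over the interval and in no step, and their share was not counted.

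The wider pathway was read from a list of 70 further genes, of which 69 were found and 47 tested. From D20 to D30, 18 of the 47 were called higher and 6 lower, with a median log2 fold change of 0.59, against 25.1% of annotated genes called higher, 16.7% called lower and a median of 0.10 over them. Of the 11 tested secreted antagonists and binding proteins 8 were higher and 0 lower, of the 9 tested latency and activation genes 3 were higher and 1 lower, and of the 11 intracellular regulators 3 were higher and 3 lower. Among 4 tested ligands 1 was higher and 2 lower, among 6 receptors and co-receptors 1 was higher, and among 6 targets 2 were higher.

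The largest rises of that list were those of Bmp15 and Dcn. Bmp15, a ligand best known from the oocyte, had 0 reads in all 6 D20 organoids and 27 to 70 reads at D30, at least 78.4-fold higher when D20 is set to a floor of 3 counts over the group (edgeR adjusted p = 8.4e-08). The exact 95% interval of its ratio, which also takes in the counting error at D30, begins at 63.3. Dcn, the matrix proteoglycan decorin that binds TGF beta, went from a median of 1.104 to 8.52 CPM (log2 3.79, adjusted p = 0.00043). The 3 largest falls were Mstn, Gdf6 and Tgif1. Mstn, the muscle growth inhibitor myostatin and closest relative of Gdf11, went from 6.79 to 0.356 CPM (log2 -3.60, adjusted p = 2.1e-05), Gdf6, a ligand of the dorsal eye, from 2.61 to 0.488 CPM (log2 -2.48, adjusted p = 5.7e-05), and Tgif1, a corepressor of Smad2, from 17.3 to 4.65 CPM (log2 -1.98, adjusted p = 6.7e-08).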

How the data were processed

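RNA was measured in 24 individual organoids, whose timepoints and replicate numbers were read from the library titles. Per the labels and the methods of the study, ribosomal RNA was depleted and strand-specific libraries were made. Reads were trimmed with cutadapt (version 1.5), aligned with HISAT2 to GRCm38, assembled with StringTie (version 1.3.3) and counted with HTSeq (version 0.6.1), as listed in the submitters' processing notes. The values the authors deposited are whole-number counts per feature without normalization, and whether counting used the strand is not given in the sources used here. All 24 count columns were used, 0 other columns held samples, and summary lines were left out.

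A minimum base mean of 10 left 46949 of 126602 features, 16253 of them annotated genes. TMM scaling was followed by 1 fit of 24 organoids without covariates, with quasi-likelihood tests in edgeR (version 4.0.16, under R version 4.3.3). Adjustment was by Benjamini-Hochberg over the 46949 features, with a threshold of 0.01. Standard errors were derived from the test statistic. The fit was also run on simulated counts of annotated genes. Their spread was a fixed setting and was not taken from these data, so that run is no support for the calls. Symbols and coordinates are from a GENCODE annotation of GRCm38, in which 46005 of 46603 identifiers matched. Promoter windows are from RefSeq (GRCm38.p6), with 28 of 39 genes matched. Reads carry no molecular identifiers, so intervals and floors cover counting error only.

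The genes and lists were chosen with earlier results of these data known. Every member was accounted for: called members reaching a mean of 50 normalized counts were given by the lowest, median and highest organoid, other called members with values, and uncalled members by their medians. Of the wider pathway list the 3 largest rises and falls were to be named, and 1 of these is not reported here. Alternatives were DESeq2 (version 1.42.0), its size factors, no filter, filterByExpr, annotated genes only, a replicate block, fits of the timepoints compared only, and leaving out each organoid.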

Additional observations from a re-analysis of the deposited data

Results flagged for a closer look

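In 11 of 148 combinations of a tested gene and a timepoint, 1 organoid lay far from the other 5, with a gap to its nearest neighbour above Dixon's critical value for 6 samples. Chance flags about 1 in 20 groups. D30 replicate 6 had 25.4 CPM of Fst, with 0.826 to 3.60 in the others, and 10.1 CPM of Tgfbr3, with 1.62 to 4.53 in the others. D22 replicate 6 had 141 CPM of Tgfbr1 (others 108 to 113), 3.26 CPM of Gdf10 (others 0 to 0.675) and 2.195 CPM of Smad9 (others 1.23 to 1.58). D20 replicate 1 had 2.31 CPM of Bmp4 (others 0.264 to 0.854) and 9.51 CPM of Grem1 (others 1.14 to 3.52). D25 replicate 1 had 69.0 CPM of Acvr1b (others 49.4 to 53.5) and 5.04 CPM of Inhba (others 0.558 to 2.07). D30 replicate 4 had 24.7 CPM of Smad3 (others 17.8 to 19.2), and D22 replicate 5 had 14.9 CPM of Id4, below the others at 24.05 to 29.3.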

How the results depend on the processing

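For D30 against D20 the count of 19 called genes was 17 to 21 under the other settings and 18 to 20 without 1 organoid. The replicate numbers do not pair the organoids by design, and the deviations of organoids with the same number correlated at a median of 0.010 (36 pairs, -0.083 to 0.214), with 8 of 24 organoids closest to their own number. With the replicate number as a block, 18 genes were called for D30 against D20, 0 for D22 against D20, 4 for D25 against D22, 5 for D30 against D25 and 18 in the joint test. From D20 to D22 the count of 0 became 1 with DESeq2, with no filter and with annotated genes only, and from D22 to D25 the count of 4 became 2 with DESeq2 size factors and with filterByExpr. The cause of these changes was not tested. Without 1 organoid the counts were 0 to 1 from D20 to D22, 1 to 4 from D22 to D25, 3 to 8 from D25 to D30 and 17 to 25 in the joint test. Directions turned for 2 genes that were not called: the log2 change of Acvr2a from D20 to D30 became 0.0471 with DESeq2 and 0.0473 with its size factors and ran from -0.0706 to 0.0385 without 1 organoid (above 0 without D20 replicate 2 or 6 or D30 replicate 5 or 6), and that of Id1 ran from -0.177 to 0.0567 (above 0 without D20 replicate 1 or 2 or D30 replicate 6). Smad1 for D30 against D20 was not called with DESeq2 size factors (log2 -0.30), with no filter (-0.36) or in a fit of D20 and D30 alone (-0.36), Smad7 with no filter (-0.59), and Nog with no filter (1.31), with the block (1.19) or in the fit of D20 and D30 alone (1.29). Scaling on annotated genes only moved the log2 changes of the tested members from D20 to D30 by a median of -0.10 and added Smad5 (log2 -0.32) and Smad3 (-0.42) to the lower genes. DESeq2 added Bmp7 (log2 0.65) to the higher genes from D20 to D30. With no filter, Fst was called higher from D20 to D30 (log2 2.52) and Grem1 from D22 to D25 (log2 1.81). Genes with few reads, such as Bmp6, Tgfbr2 and Fst, are limited by depth, and the step comparisons by 6 organoids from 1 differentiation.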

Other observations

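Ratios of 3 further pairs of related transcripts, per kilobase of exon, are given as values with no test. The level of Bmp3 relative to Bmp7 had medians of 0.640, 1.11, 1.48 and 2.03 over the 4 timepoints in turn, and no D30 organoid (1.29 to 3.39) overlapped those of D20 (0.256 to 0.788). The level of Smad2, of the TGF beta branch, relative to Smad5, of the BMP branch, had medians of 0.643, 0.753, 0.506 and 0.410, and the D30 organoids (0.320 to 0.493) lay below all D20 organoids (0.597 to 0.782). The level of Id4 relative to Id1 had medians of 0.659, 0.666, 1.25 and 1.45, and at D30 (1.04 to 2.87) it lay above all D20 organoids (0.444 to 0.933).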
